A study of Rattus norvegicus with 10 samples.

Results

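The comparison described here sets rat cells carrying an extracellular domain mutant of the receptor BMPR2 (ED mutant) against the same cells carrying an empty vector. It rests on 4 of the 10 arrays of the series, the 2 labelled ED mutant and the 2 labelled empty vector, chosen by their labels alone. The series asked how different classes of BMPR2 mutation change gene expression in vascular smooth muscle cells. All groups were A7r5, a line derived from rat aorta, kept in normal oxygen and 10% serum at about 50% confluence. The labels disagree on the reference group: sample titles and source names call it native A7r5, whereas descriptions and characteristics say that it was stably transfected with empty vector, and it is called empty vector here on the latter. The receptor groups were stably transfected by every label. The ED mutant construct carried the substitution T354G, written as the labels give it. Of the other groups, wild-type human BMPR2 and the CD mutant, which carries 2579-2580delT in the cytoplasmic tail, had 2 arrays each and lent their spread to the fit, while the 2 arrays of the kinase domain mutant (KD mutant, C994T) were left out. The labels name neither the vector, nor the promoter that drives the transgene, nor whether a line was 1 clone or a pool, so a difference between constructs and a difference between cell lines cannot be told apart. Separate cultures are not stated for the arrays of a group either, and every p-value therefore reflects array-to-array spread that may be technical.

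BMPR2 is a type II receptor of bone morphogenetic proteins (BMPs). A BMP dimer brings type II and type I receptors together at the cell surface through their extracellular domains, the type II kinase activates the type I receptor, and this phosphorylates the receptor Smads SMAD1, SMAD5 and SMAD9, which enter the nucleus with SMAD4 and switch on genes such as the Id family. In vascular smooth muscle the pathway restrains growth and inflammatory signalling, and germline mutations of BMPR2 cause heritable pulmonary arterial hypertension.

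Values are the log2 summaries of Affymetrix probe sets deposited by the authors, and a difference of 1 is 2-fold. Testing was limited to probe sets that reached log2 4.9, the 40th percentile of all values on the 8 arrays without the KD mutant, on at least 2 of them (19534 probe sets). A probe set is called changed at an adjusted p under 0.05 in limma. The 4 arrays had medians of 5.32 to 5.34, correlated at 0.9918 or more with every other array of the 8, and their number limits the precision. The poly-A control transcripts, which are spiked into RNA before labelling, stood at 8.12 and 7.86 with empty vector and at 8.39 and 8.42 in the ED mutant. The 3′ to 5′ difference of the beta-actin controls, a sign of RNA quality, was 1.05 and 0.98 against 1.08 and 1.14, and that of the Gapdh controls 0.41 and 0.41 against 0.37 and 0.38, so the 2 moved in opposite directions. Markers of the labelled cell type were uneven on these 4 arrays: Smtn, a smooth muscle cytoskeletal protein, ranged from 10.33 to 10.47 and Acta2, smooth muscle actin, from 6.15 to 6.41, whereas Tagln lay around the filter level at 4.82 to 5.06, and Cnn1, at 4.37 to 4.57, and Myocd, at 4.13 to 4.40, lay below it. The epithelial genes Cdh1 (9.22 to 10.27) and Krt18 (11.38 to 11.82) were well above it and the epithelial gene Epcam (3.63 to 3.87) below it. Of genes typical of mesenchymal cells, Vim ranged from 12.68 to 12.75 and Col1a2 from 3.60 to 4.11, while Col1a1 stood at 5.94 to 6.08 by 1 probe set and 3.73 to 4.05 by the other. The endothelial gene Pecam1 (3.38 to 3.59) was below the filter level.

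Cells with the ED mutant had more of the skeletal muscle actin Acta1, the transporter Slc5a11, the plasma proteins Fgb and Hpx, the galectin Lgals4 and E-cadherin (Cdh1) than cells with empty vector, and less of the chemokine Ccl2, the gap junction protein Gja1, the calcium-binding protein S100a4 and the BMP target Id3. In total 320 probe sets changed, 1.64% of those tested, with 181 higher (0.927%) and 139 lower (0.712%) in the ED mutant. The higher ones named 145 genes and the lower ones 111. Changes were mostly modest, with a median of 0.61 among rises and -0.54 among falls, and 13 rises and 3 falls reached 2-fold. An unadjusted p under 0.05 was found for 3098 probe sets where 977 are expected by chance.

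The count depended on each array. Without empty vector replicate 1 or 2 it was 37 and 88, and without ED mutant replicate 1 or 2 it was 53 and 56; 29 probe sets, 25 higher and 4 lower, passed in all of these fits, and 220 of the 320 passed in no such fit. With the poly-A controls as a covariate 41 passed, 36 higher and 5 lower. The list genes Serpina1, Krt18, Bnip3, Spp1, Efemp2, Myc, Tpm1, Inhba and Fst, described further on, passed in no fit with 1 array left out and not with the covariate. Every call against wild type quoted for a gene is lost too, since that comparison has 0 calls when any 1 of its arrays is left out and 0 with the covariate. Beside each list count that follows, the share over all 10904 genes tested by 1 probe set each is 1.20% higher and 0.835% lower; beside each count of arrays that do not overlap it is 22.6% above and 26.4% below. The sizes moved less with that covariate: among the 30 genes named next by size, the difference was 0.89 to 1.13 times the one without it. With 1 array left out some moved more. Bend5 ranged from -0.77 to -1.34 (-1.06 with all arrays) and Cav1 from -0.61 to -1.07 (-0.84), while Acta1 ranged from 1.97 to 2.40 (2.18).

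**Figure D1:**
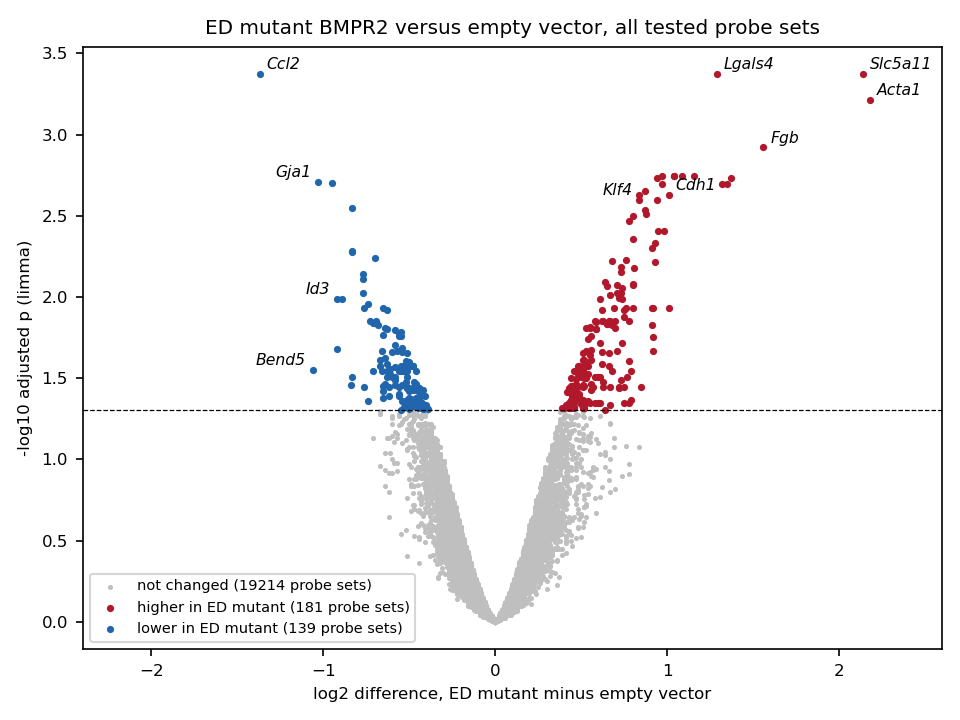
Each point is a tested probe set, with the log2 difference of ED mutant minus empty vector on the x axis and the negative log10 of the adjusted p from limma on the y axis; the dashed line marks an adjusted p of 0.05. The 181 probe sets higher in the ED mutant reach larger differences than the 139 lower ones, with Acta1 and Slc5a11 farthest to the right and Ccl2 farthest to the left.

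Promoter sequence was available in RefSeq's rat assembly GRCr8 for 5 of 6 genes looked up (Acta1, Id1, Id3, Fgb and Hpx), and the 3 of the 4 largest rises found there are shown because they were the leading members of the response. Each is the 250 bases before the annotated start, read 5′ to 3′ on the gene's strand, here the minus strand for all 3, and capitals mark matches to the motifs searched on both strands: the CArG box bound by serum response factor, TTCNNNGAA (bound by STAT factors), TATAAA and GGCGCC, a BMP response element.
Acta1, chr19:68784195-68784444: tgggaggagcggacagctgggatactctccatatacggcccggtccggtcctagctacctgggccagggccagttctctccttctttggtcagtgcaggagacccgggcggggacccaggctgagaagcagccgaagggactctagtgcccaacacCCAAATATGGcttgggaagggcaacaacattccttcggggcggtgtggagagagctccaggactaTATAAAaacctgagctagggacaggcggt
Fgb, chr2:170700876-170701125: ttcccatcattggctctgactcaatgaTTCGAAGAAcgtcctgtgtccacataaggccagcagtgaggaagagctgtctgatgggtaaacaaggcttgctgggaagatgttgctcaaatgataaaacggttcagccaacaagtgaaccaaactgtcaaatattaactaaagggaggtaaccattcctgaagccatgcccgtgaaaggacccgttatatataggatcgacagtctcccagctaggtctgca
Hpx, chr1:169352156-169352405: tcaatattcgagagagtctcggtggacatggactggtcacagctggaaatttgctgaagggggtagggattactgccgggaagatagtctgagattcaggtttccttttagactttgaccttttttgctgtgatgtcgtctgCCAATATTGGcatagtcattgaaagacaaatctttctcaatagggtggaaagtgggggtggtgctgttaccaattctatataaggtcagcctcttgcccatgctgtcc
Acta1 held CCAAATATGG, a CArG match, 94 to 85 bases before its start and TATAAA from 29 to 24. Hpx held the CArG match CCAATATTGG from 108 to 99, and Fgb the TTCNNNGAA match TTCGAAGAA from 223 to 215. Of 33469 windows of the same length in the table, 1.5% held a CArG match, 7.67% TTCNNNGAA, 8.69% GGCGCC and 12.9% TATAAA; in the windows of Id1 and Id3 there was 1 match, TATAAA in Id1. No match overlapped another.

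Acta1, the actin of skeletal muscle thin filaments, was the largest rise. It read 6.42 and 5.99 on the empty vector arrays and 8.39 and 8.38 on the ED mutant arrays, 4.54-fold higher (log2 difference 2.18, SE 0.16, adjusted p = 0.00061 in limma). Both ED mutant arrays also lay above wild type (by 1.37, adjusted p = 0.0141) and the CD mutant (by 1.34, adjusted p = 0.00575), whose own differences from empty vector were 0.81 and 0.84. Of 13 striated muscle genes tested, Acta1 was the 1 that changed, and the list's median difference was 0.03. Slc5a11, a sodium-coupled inositol transporter found in kidney and intestine, read 6.03 and 6.39 with empty vector and 8.27 and 8.44 in the ED mutant, 4.42-fold higher (adjusted p = 0.000426). Its difference from wild type was 1.11 (adjusted p = 0.0203), and wild type and the CD mutant themselves stood 1.03 (adjusted p = 0.0995) and 1.08 (adjusted p = 0.0275) above empty vector.

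Among liver-type plasma protein genes, 3 of 17 rose and 1 fell, where 1.20% of all 10904 genes tested rose and 0.835% fell. Fgb, the fibrinogen beta chain, went from 4.88 and 4.98, at the filter level, to 6.51 and 6.48, a difference of 1.56 (adjusted p = 0.0012) that is not measured exactly because of the low reference. Its other 2 probe sets lay below the filter level and showed no rise, at 4.56 and 4.46 against 4.40 and 4.54, and 3.33 and 2.99 against 3.09 and 3.22. Its excess over wild type, 0.66, did not pass (adjusted p = 0.082). Hpx, the haem scavenger hemopexin, read 7.45 and 7.27 against 8.91 and 8.54, 2.58-fold higher (adjusted p = 0.00186), and also exceeded wild type by 1.02 (adjusted p = 0.0152). Serpina1, which encodes alpha-1 antitrypsin, rose by 0.56 (adjusted p = 0.0344). Rbp4, the plasma carrier of retinol, fell by 0.76, from 8.98 and 8.85 to 8.04 and 8.27 (adjusted p = 0.0117). The list's median difference was 0.02, against -0.01 over all genes, and most of its members did not change.

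Several epithelial genes rose. Lgals4, a galectin of gut epithelium, read 8.67 and 8.64 with empty vector and 9.90 and 9.99 in the ED mutant, 2.45-fold higher (adjusted p = 0.000426), and exceeded wild type by 0.85 (adjusted p = 0.0141). Cdh1, the adhesion protein of epithelial junctions, read 9.22 and 9.26 against 10.27 and 10.23, a 2.01-fold rise (adjusted p = 0.00235); its excess of 0.58 over wild type did not pass (adjusted p = 0.0651), and that over the CD mutant, also 0.58, did (adjusted p = 0.0372). A second Cdh1 probe set was below the filter level on all 4 arrays. The keratin Krt18 rose by 0.42, from 11.39 and 11.38 to 11.79 and 11.82 (adjusted p = 0.0384), and its partner Krt8 stood 0.52 higher without passing (adjusted p = 0.0545). In all 3 of 16 epithelial markers tested rose, and the ED mutant arrays lay above both empty vector arrays in 6 and below both in 2, against 22.6% and 26.4% of all genes. The list's median difference was 0.09, against -0.01 over all genes. The mean log2 value of the 16 markers was 7.47 and 7.44 on the ED mutant arrays and 7.15 to 7.22 on the other 6 arrays of the fit. That mean includes the 3 genes that rose. The 15 kidney tubule markers, among which Slc5a11 and the water channel Aqp1 rose and the phosphate transporter Slc17a1 fell, averaged 6.83 and 6.75 against 6.60 and 6.68 with empty vector. The wild-type and CD mutant arrays averaged 6.68 to 6.70. These means include Slc5a11 and Aqp1, and the median difference of the 15 markers between ED mutant and empty vector was 0.01. In bulk RNA, more cells of a type and more RNA per cell cannot be told apart, and the part of these markers in the other differences was not tested.

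**Figure D2:**
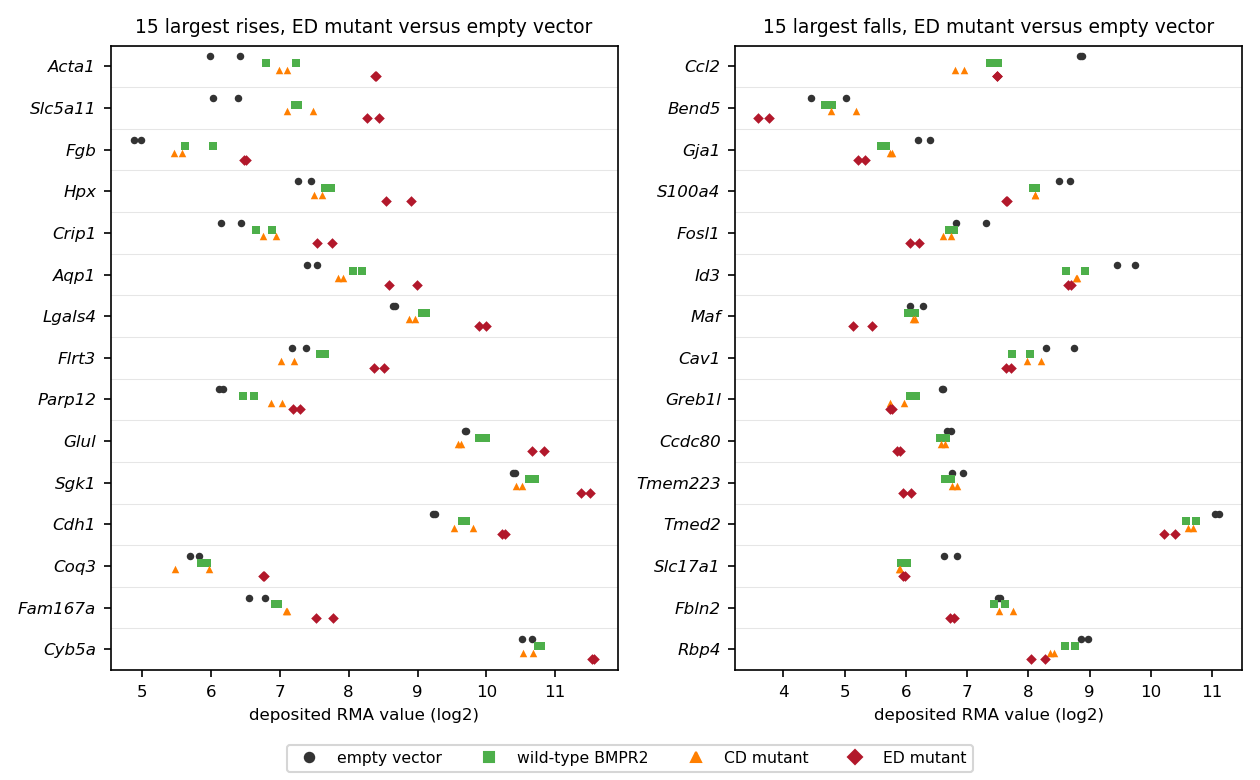
Each row is a gene and each symbol 1 array, with the deposited log2 value on the x axis; the panels hold the 15 largest rises and the 15 largest falls of the ED mutant against empty vector among changed, named genes. The genes were selected for ED mutant and empty vector arrays that do not overlap; in Acta1 and Slc5a11 the wild-type and CD mutant arrays lie between them.

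The other large rises came from several functions. Crip1, a small LIM domain protein, rose 2.55-fold (6.15 and 6.44 against 7.76 and 7.54), and Aqp1 2.5-fold (7.39 and 7.54 against 8.99 and 8.59), both with an adjusted p of 0.00202; a second, dimmer Aqp1 probe set stood 0.67 higher without passing (adjusted p = 0.1). By the brighter Aqp1 probe set, wild type stood 0.66 above empty vector without passing (adjusted p = 0.169). Flrt3, a membrane adhesion protein with leucine-rich repeats, rose 2.23-fold, from 7.18 and 7.38 to 8.37 and 8.51, and was the 1 of 15 integrins and adhesion receptors to change. Glul, glutamine synthetase, rose by all 3 of its probe sets, by 1.04, 0.95 and 0.93, the brightest from 9.71 and 9.69 to 10.83 and 10.66. Sgk1, a kinase induced by serum and glucocorticoid, rose 2.06-fold, from 10.42 and 10.39 to 11.37 and 11.51. Coq3, an enzyme of ubiquinone synthesis, Fam167a and Cyb5a, cytochrome b5, rose 2.01-, 1.97- and 1.96-fold. Of the 15 largest rises, 12 also passed the test against wild type and 13 that against the CD mutant, comparisons that use the same ED mutant arrays, and 0 of these 12 passed against wild type when any 1 array concerned was left out; the exceptions were Fgb, Aqp1 and Cdh1 for wild type and Parp12 and Fam167a for the CD mutant. With 1 array left out 14 of the 15 passed in every such fit, and the exception, Coq3, passed in none.

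Of the interferon response genes, 3 of 15 rose and 0 fell (1.20% and 0.835% of all genes), with a median of 0.15. Parp12, an interferon-induced ADP-ribosyltransferase, rose 2.14-fold, from 6.12 and 6.17 to 7.19 and 7.29 (adjusted p = 0.0018). It also stood above empty vector in the CD mutant (0.80, adjusted p = 0.0255), and with wild type by 0.40 without passing (adjusted p = 0.247). The transcription factor gene Irf1 read 7.0 and 6.93 against 7.62 and 7.71, and Psmb9, a subunit of the immunoproteasome, 6.82 and 6.89 against 7.65 and 7.46, both 1.63-fold higher with adjusted p-values of 0.00846 and 0.014. With the poly-A covariate neither passed (adjusted p = 0.0766 and 0.0954), whereas Parp12 did (adjusted p = 0.0192). Isg15, Ifit1 and Stat2, common interferon targets, differed by 0.01, 0.15 and 0.09 and did not pass.

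In the hypoxia and glycolysis list, 3 of 19 genes rose, 0 fell, and the median was 0.17. The ED mutant arrays were above both empty vector arrays in 12 of the 19, against 22.6% of all genes. Depp1, a target of FOXO factors, read 6.53 and 6.41 against 7.28 and 7.26 (1.74-fold, adjusted p = 0.00317), Ndrg1, a stress-response gene, rose 1.69-fold (adjusted p = 0.0121), and Bnip3, a mitophagy receptor, 1.44-fold (adjusted p = 0.0314). The glycolytic enzyme genes Ldha, Pgk1 and Eno1 differed by 0.03, 0.12 and -0.07 without passing. With wild-type BMPR2, Depp1 and Bnip3 stood 0.66 and 0.56 above empty vector without passing (adjusted p = 0.072 and 0.125), and the ED mutant differed from wild type by 0.14 and -0.03 (adjusted p = 0.593 and 0.95). Mt2A, a metallothionein that binds zinc and copper, read 9.39 and 9.09 with empty vector, 10.26 and 10.08 in the ED mutant (adjusted p = 0.00612); its mean with wild type was 10.02, which did not pass against empty vector (adjusted p = 0.0995). The CD mutant passed against empty vector for Mt2A (0.88, adjusted p = 0.0268) and Depp1 (0.67, adjusted p = 0.0268).

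Ccl2, the chemokine that recruits monocytes, was the largest fall. It read 8.88 and 8.84 with empty vector and 7.48 and 7.49 in the ED mutant, 2.59-fold lower (log2 difference -1.37, SE 0.09, adjusted p = 0.000426). Wild type stood as low, at a mean of 7.44, and the CD mutant lower still, at 6.87, with the ED mutant 0.61 above it (adjusted p = 0.0181). Of 23 chemokine, cytokine and NF-kB genes Ccl2 was the 1 that changed; Ccl7, its neighbour in function, stood 0.62 lower without passing (adjusted p = 0.0734), and Ccl20 0.13 lower (adjusted p = 0.526). Slc17a1 fell from 6.84 and 6.62 to 5.98 and 5.95 (adjusted p = 0.00718), a level at which wild type (5.97) and the CD mutant (5.89) also stood.

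Some genes of cell contact and matrix fell. Gja1, connexin 43, the main gap junction channel of vascular smooth muscle, read 6.4 and 6.20 against 5.33 and 5.22, 2.04-fold lower (adjusted p = 0.00195), by 1 of its 2 tested probe sets; the other differed by 0.09. By the first, wild type and the CD mutant differed from empty vector by -0.66 and -0.54 without passing (adjusted p = 0.0995 and 0.0746). The ED mutant differed from wild type by -0.36 (adjusted p = 0.204). In the extracellular matrix list 5 of 27 genes fell and 0 rose, with a median of -0.05. With all 10 arrays in the fit 2 fell, and with the probe sets of each gene averaged 6 fell. The ED mutant arrays lay below both empty vector arrays in 9 of the 27, which is near the 26.4% of all genes. Ccdc80, a secreted matrix protein, went from 6.67 and 6.73 to 5.90 and 5.85 (adjusted p = 0.00283), and Fbln2, fibulin 2 of basement membranes and elastic fibres, from 7.54 and 7.51 to 6.79 and 6.72 (adjusted p = 0.00947). Both also lay below wild type, by 0.73 and 0.77 (adjusted p = 0.0141 and 0.0209). The laminin chain Lamb1 fell by 0.74, osteopontin (Spp1) by 0.56 and fibulin 4 (Efemp2) by 0.48, with adjusted p-values from 0.0286 to 0.0468. The collagen genes Col1a1, Col3a1 and Col4a1 differed by -0.05, 0.15 and 0.06 and did not pass.

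Among the remaining large falls, S100a4, a calcium-binding protein of motile cells, dropped from 8.68 and 8.50 to 7.63 and 7.65 (1.93-fold, adjusted p = 0.002). For S100a4 wild type and the CD mutant both differed from empty vector by -0.49 without passing (adjusted p = 0.139 and 0.0896). The ED mutant differed from wild type by -0.45 (adjusted p = 0.094). Cav1, the coat protein of caveolae, fell by 0.84 by its brightest probe set (8.75 and 8.29 against 7.72 and 7.63, adjusted p = 0.0348), while its other 2 probe sets differed by -0.18 and 0.00. Maf, a basic leucine zipper factor, fell by 0.89 by 1 of 3 probe sets. Bend5 stood at 5.02 and 4.45 against 3.59 and 3.76, means that both lie below the filter level, so its difference of -1.06 is not measured exactly. Greb1l, Tmem223 and Tmed2, a cargo receptor of early secretory vesicles, fell 1.78-, 1.78- and 1.71-fold, the last by 1 of 2 probe sets. Of the 15 largest falls, 4 passed in every fit with 1 array left out (Ccl2, Gja1, S100a4 and Ccdc80), and Fbln2 passed in none. Against wild type, with all arrays, 4 of the 15 passed (Maf, Ccdc80, Tmem223 and Fbln2) and against the CD mutant 5 (these and Bend5). With the poly-A covariate 5 of the 15 passed against empty vector (Ccl2, Gja1, S100a4, Greb1l and Ccdc80). Wild type lay on the ED mutant's side of empty vector in 14 of the 15 falls. Among the 15 largest rises it did so in 15. Both differences share the empty vector arrays by which the genes were selected, and the share over all genes was not counted.

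Of 22 immediate early genes, 1 rose and 2 fell, with a median of -0.02. Klf4, a transcription factor of differentiated epithelium and of smooth muscle switching, read 10.15 and 10.27 against 11.05 and 11.04 (1.78-fold, adjusted p = 0.00252) and exceeded wild type by 0.74 (adjusted p = 0.0141). Fosl1, a partner of Jun proteins, fell from 7.31 and 6.81 to 6.06 and 6.21 (adjusted p = 0.0208), and Myc from 8.74 and 8.64 to 8.23 and 8.22 (adjusted p = 0.0334). Fos stood 0.61 higher without passing (adjusted p = 0.054). In the cell cycle list 0 of 24 genes changed, with a median of -0.05; the ED mutant arrays were below both empty vector arrays in 8 and above both in 1, against 26.4% and 22.6% of all genes, so the first is near the share over all genes.

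**Figure D3:**
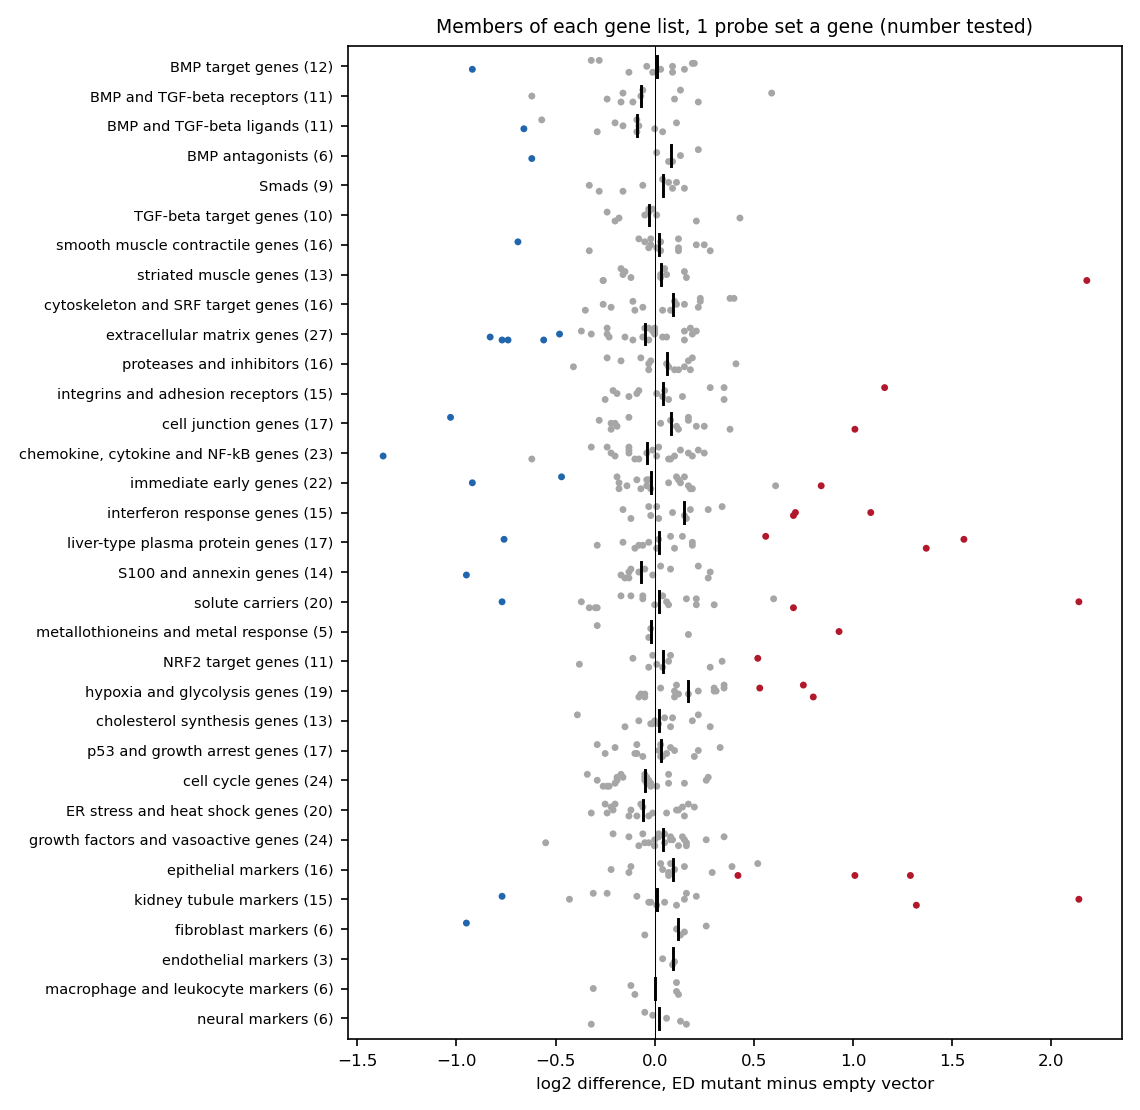
Each point is a tested gene, by its brightest probe set, placed by its log2 difference of ED mutant minus empty vector on the x axis; rows are the gene lists with the number tested, red and blue points rose and fell, grey points did not pass, and black bars are list medians. Medians lie between -0.09 and 0.17, and the changed genes are few. Some of them, such as Krt18, differ by less than a gene of the same list that did not pass, such as Krt8.

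The pathway of the transfected receptor moved little in total. The rat Bmpr2 gene has 2 probe sets, which are annotated to the rat gene and so do not check the human one: the brighter gave 6.66 and 6.70 with empty vector and 7.0 and 6.79 in the ED mutant (log2 difference 0.22, adjusted p = 0.492), the dimmer 5.05 and 5.29 against 5.24 and 5.06 (difference -0.02, adjusted p = 0.947). Of the 11 BMP and TGF-beta receptor genes tested and the 9 genes of the Smad list, 0 changed by their brightest probe sets. With the probe sets of each gene averaged, 1 receptor gene rose and 0 Smad genes changed. The type I receptors Bmpr1a and Acvr1 differed by -0.06 and -0.17, and the co-receptors Rgmb and Tgfbr3 by 0.59 (adjusted p = 0.115) and -0.11. A second, dimmer Rgmb probe set stood 0.37 higher without passing (adjusted p = 0.192). Smad1, Smad5 and the shared Smad4 differed by -0.16, 0.04 and 0.07 by their brightest probe sets.

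Among BMP target genes, 1 of 12 fell and 0 rose, with a median of 0.01. Id3, an inhibitor of basic helix-loop-helix factors, read 9.74 and 9.45 with empty vector and 8.70 and 8.65 in the ED mutant, 1.9-fold lower (SE 0.13 on the log2 scale, adjusted p = 0.0103); it passed in 1 of the 4 fits with an array left out. With the poly-A covariate Id3 did not pass (adjusted p = 0.0783). Id1, its close relative, read 10.97 and 10.94 against 10.64 and 10.63, a difference of -0.32 that did not pass (adjusted p = 0.128) although the arrays do not overlap. Id2 read 11.22 and 11.15 against 11.09 and 11.02 (difference -0.13, adjusted p = 0.53), and Id4 differed by 0.09. The inhibitory Smads Smad6 and Smad7 differed by -0.28 (adjusted p = 0.158) and 0.09. Id3 was as low with wild type (mean 8.77) and the CD mutant (8.78), and the ED mutant differed from them by -0.10 and -0.11 (SE 0.13, adjusted p = 0.826 and 0.76). For Id2 the ED mutant stood 0.60 above the CD mutant (adjusted p = 0.0184). Of ligands and antagonists, Inhba, the activin A subunit, fell by its brighter probe set from 8.97 and 9.0 to 8.47 and 8.19 (adjusted p = 0.0286), with wild type at 8.23. A second, dimmer Inhba probe set differed by -0.27 without passing (adjusted p = 0.335). Fst, the activin antagonist follistatin, fell by 0.63 and 0.62 by its 2 probe sets (adjusted p = 0.012 and 0.0406). None of the 3 probe sets of Inhba and Fst called changed passed with the poly-A covariate, where the adjusted p was 0.163 for Inhba and 0.0783 and 0.198 for Fst.

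**Figure D4:**
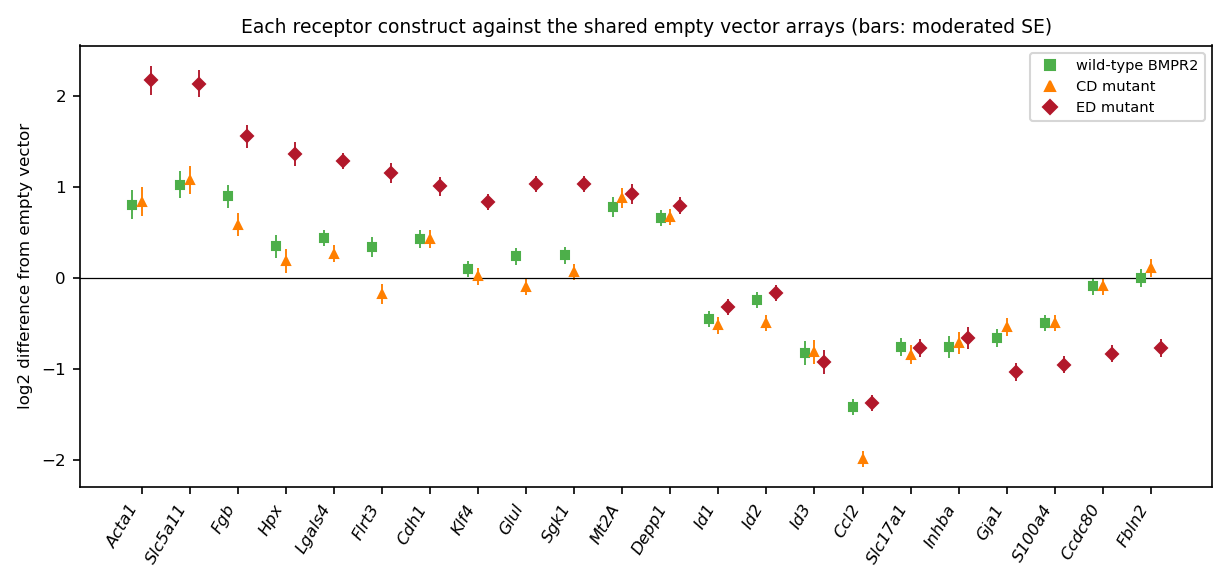
For each gene, by its probe set with the lowest p, the points give the log2 difference of wild-type BMPR2, CD mutant and ED mutant from the same 2 empty vector arrays, and bars are moderated standard errors. Id3, Slc17a1, Inhba, Mt2A and Depp1 lie together for the 3 constructs, whereas Klf4, Glul, Ccdc80 and Fbln2 stand apart in the ED mutant.

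Smooth muscle contractile genes differed little. Of 16 tested 1 fell and 0 rose, with a median of 0.02. When the probe sets of each gene were averaged instead of taking the brightest, 1 rose and 0 fell, with a median of 0.03. The direction of the single call in this list therefore depended on how probe sets were combined. Tpm1, a tropomyosin of actin filaments, fell by 0.69 and 0.73 by 2 of its 5 tested probe sets, the brightest from 12.15 and 12.08 to 11.46 and 11.40 (adjusted p = 0.0141), and the other 3 differed by -0.20, -0.18 and 0.30. Acta2 differed by 0.12, Myh11 by 0.28 and Tagln by -0.03, and none of these passed. The mean of the 16 genes was 7.93 and 7.91 with empty vector and 7.95 and 7.88 in the ED mutant, so the groups overlap. Fibroblast, endothelial, leukocyte and neural markers had 6, 3, 6 and 6 tested genes, of which S100a4, on the fibroblast list, was the 1 that changed.

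Set directly against the other receptor constructs, the ED mutant differed from wild-type BMPR2 in 55 probe sets (0.282%), 44 higher (0.225%) and 11 lower (0.0563%), and from the CD mutant in 145 (0.742%), 89 higher (0.456%) and 56 lower (0.287%). Against empty vector, with the same fit and controls, 3 probe sets changed with wild type (0.0154%; 1 higher, 0.00512%, and 2 lower, 0.0102%) and 43 with the CD mutant (0.220%; 27 higher, 0.138%, and 16 lower, 0.0819%). These counts share arrays and are given side by side. The 55 became 0 when any 1 of the 4 arrays concerned (wild type 1 or 2, ED mutant 1 or 2) was left out, and 0 with the poly-A covariate, where 1488 to 2231 and 1604 probe sets kept an unadjusted p under 0.05 in limma. The 145 became 29 without CD mutant replicate 1, 52 without its replicate 2, 43 without ED mutant replicate 1 and 29 without its replicate 2.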

How the data were processed

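Total RNA of A7r5 cells was labelled with biotin and hybridised to Affymetrix arrays (per the labels' protocols). The deposited values are log2 signals per probe set, and the submitters' processing notes name RMA; which arrays it normalized together, and its version, were not stated in the labels. RMA compresses differences at low signal. From 31099 probe sets, 57 controls were left out; of the rest 20826 have 1 gene in the platform annotation, 436 several and 9780 none. Symbols of 20758 matched the RefSeq gene table of GRCr8 by Entrez identifier.

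The deposited values of 8 arrays in 4 groups entered 1 model in limma 3.58.1 under R 4.3.3 (lmFit, contrasts, eBayes; 4 residual and 9.68 moderated degrees of freedom), p-values are two-sided and Benjamini-Hochberg adjusted over 19534 probe sets, and SE is the moderated standard error. The code was tested on simulated data. Lists took each gene's brightest probe set and had no set test. Named genes were Bmpr2, the top 15 rises and top 15 falls in size among changed genes with arrays that do not overlap, up to 4 changed members of each list (or that with the lowest p), and members of the BMP lists; other list members cited were chosen after their values were seen. Members and lists were chosen with earlier results of these data known. Alternatives covered the filter, scaling, variance model, replicate block, arrays fitted, thresholds, a poly-A covariate and leaving out arrays. Of 114 changed genes with several tested probe sets, all changed in 9, and 0 were called both ways.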

Additional observations from a re-analysis of the deposited data

Results flagged for a closer look

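The poly-A control probe sets, which lie outside the gene comparison, averaged 8.41 in the ED mutant and 7.99 with empty vector, and both ED mutant arrays exceeded both empty vector arrays. Groups of 2 arrays are too small for a check of single arrays against their group.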

How the results depend on the processing

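For the ED mutant against empty vector the 320 changed probe sets became 127 without a filter, 664 with a filter at the 60th percentile, 1092 with trend and robust variance, 95 with the 4 compared arrays alone, 119 with all 10 arrays, 41 with the poly-A covariate, 53 at an adjusted p under 0.01 and 148 at 1.5-fold or more; leaving out 1 array gave 37 to 88. Rises made up 56.6% of the 320, 58.4% after centring and 57.4% after quantile normalization, but 45.6% with trend and robust variance, 49.1% with the 60th percentile filter and 87.8% with the covariate. Against wild type the 55 became 28, 133, 407 and 9 in the first 4 of these settings, 94 with genes in place of probe sets, 0 with the covariate and 0 at an adjusted p under 0.01; leaving out 1 array gave 0 to 0, with 1488 to 2231 probe sets at an unadjusted p under 0.05. Against the CD mutant the 145 became 79, 305, 647 and 42, then 79 with all 10 arrays, 41 with the covariate, 38 at an adjusted p under 0.01 and 92 at 1.5-fold; leaving out 1 array gave 29 to 52. A replicate block gave 211, 31 and 93 for the 3 comparisons. The labels do not say that replicate numbers pair samples, and correlations of deviations between same-numbered arrays ran from -0.0362 to 0.157, so the numbers were not taken as pairs. The cause of these shifts was not tested. Of 47 changed probe sets named, 0 reversed and 20 passed in every alternative that tested them; 14 to 25 no longer passed with 1 array left out and 26 with the covariate. The 47 are those picked by size or from the lists, and other changed probe sets cited are not among them. The list genes changed numbered 36, and 25 to 43 under their alternatives.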

Other observations

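The following genes lie outside the lists and were picked from the changed genes after their values were seen, so they stand as single genes and support no group. Fxyd3, a regulator of the sodium pump, read 6.56 and 6.60 with empty vector and 7.57 and 7.47 in the ED mutant (adjusted p = 0.00186 in limma). Foxa2, a transcription factor of endoderm, read 7.65 and 7.75 against 8.50 and 8.39, and Gata6, another such factor, rose by 0.53. The gut peptide genes Guca2a and Guca2b, guanylin and uroguanylin, rose by 0.63 and 0.61, Napsa, an aspartic protease of lung and kidney, by 0.80, and the secreted proteins Spp2, Clu and Lect2 by 0.88, 0.87 and 0.74. Clu, clusterin, went from 11.06 and 11.23 to 12.08 and 11.96. With the poly-A covariate Guca2b and Lect2 did not pass (adjusted p = 0.0786 and 0.0777). Fxyd3, Foxa2, Spp2 and Clu did (adjusted p = 0.021, 0.0433, 0.0262 and 0.0269).

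By 1 of 3 probe sets App, the amyloid precursor protein, went from 9.59 and 9.75 to 10.50 and 10.44 (adjusted p = 0.00437). Aplp1 rose by 0.54, Apbb1 by 0.55, Psen2 by 0.46 and the tau gene Mapt by 0.73 and 0.56 by 2 probe sets, with adjusted p-values from 0.007 to 0.0443. Syncrip, an RNA-binding protein, fell by 3 of 4 probe sets (-0.63, -0.61 and -0.58), Pnisr by 0.76, Tardbp by 0.67, Son by 0.58, Hnrnpa3 by 0.52, Hnrnpa1 by 0.50 and Ddx17 by 0.48, with adjusted p-values from 0.0243 to 0.0364. Dnmt1, the maintenance DNA methyltransferase, read 8.92 and 8.94 against 8.23 and 8.23 (adjusted p = 0.00573). Several of these genes have other probe sets that did not pass: the 2 brighter probe sets of Hnrnpa1 differed by 0.04 and -0.03, the brightest of Tardbp by -0.34 (adjusted p = 0.0883) and the brightest of App by 0.41 (adjusted p = 0.0778). No group test was run.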
